A study of Mus musculus with 8 samples.

Results

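The interleukin 1 (IL-1) receptor family was described in conventional CD4+ T (Tconv) cells of mouse melanomas, separated by the chemokine receptor CCR8 and profiled by bulk RNA-Seq. The family was taken as 7 genes, found by their symbols among the 11233 genes of the table of normalized counts: the decoy receptor Il1r2, the signaling chains Il1r1, Il1rl1, Il1rl2 and Il18r1, and the accessory chains Il1rap and Il18rap. All 7 were in the table, and all 7 were among the 11032 whose mean was 10 or more normalized counts. The 7 genes were chosen as a family with the CCR8+ against CCR8- values of these same libraries known, so their differences between the populations are given as a description, with no test.

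Receptors of this family share an intracellular domain, the TIR domain, that recruits the adaptor MyD88 once a ligand has brought a signaling chain and an accessory chain together. IL1R1 binds IL-1, ST2 (encoded by Il1rl1) binds IL-33, the IL-36 receptor is encoded by Il1rl2, and IL18R1 binds IL-18. IL-1RAcP (Il1rap) is the accessory chain for the first 3 of these, and IL18RAP serves IL-18. IL1R2 binds IL-1 but has no TIR domain, so it takes up the ligand without signaling. In CD4+ T cells ST2 is best known from Th2 and tissue regulatory T (Treg) cells, the IL-18 receptor from Th1 cells, IL1R1 from Th17 cells and IL1R2 from activated Treg cells.

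The cells were tumor-infiltrating CD4+ T cells negative for EGFP, sorted by flow cytometry into 4 CCR8+ and 4 CCR8- libraries. All came from Foxp3EGFP-DTR mice bearing subcutaneous B16-F10 tumors, a transplantable melanoma line, and all were from mice given diphtheria toxin (DTx), so both groups carried the same allele and the same treatment. In these mice the Foxp3 locus drives EGFP together with a receptor for diphtheria toxin, which makes Treg cells sensitive to DTx, and the EGFP gate leaves out those that remain. DTx was given as 4 injections of 1 μg from day 7 to day 13 after implantation, the mice were 8 to 14 weeks old, and cells were taken on day 16 by the methods, although the title of a supplementary file gives day 18. The study describes the 4 libraries of each population as biological replicates from a single day, and the labels number them 1 to 4 without tying a number to a mouse.

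The libraries held between 12067780 and 17802628 recovered reads, and 3 reads corresponded to 2.21 to 3.42 normalized counts. The T cell genes Cd3e, Cd3d, Cd3g, Cd4 and Cd28 summed to between 49169 and 69938 normalized counts in CCR8- cells and between 55284 and 85117 in CCR8+ cells. Ccr8, the sorted marker, was at 2039, 1293, 6214 and 4637 normalized counts in CCR8- replicates 1 to 4 and at 7975, 6970, 42508 and 22965 in CCR8+ replicates 1 to 4, so every CCR8+ library lay above every CCR8- library. CCR8- replicate 1 and CCR8+ replicate 3 stood apart. CCR8- replicate 1 had 8569 detected genes against 9544 to 10882 in the other libraries, and 242 genes were at 0 there with at least 100 normalized counts in each of the others. CCR8+ replicate 3 had the highest Ccr8 level. Genes at 0 with at least 100 normalized counts in each other library numbered 44 in CCR8+ replicate 1 and 36 in CCR8+ replicate 3. These libraries had 9544 and 9701 detected genes. Where leaving out either library changes a described value by much, both values are given. The limma test over all 11032 genes called 0 genes (0% of those tested) with a fold change above 3 and an adjusted p below 0.05, and had 562 genes at an unadjusted p under 0.05. The edgeR test on the recovered reads also called 0 genes, with 487 at an unadjusted p under 0.05. DESeq2 on the recovered reads called 13 of the 2259 genes that it gave an adjusted p (0.575%), all higher in CCR8+ cells. The decoy receptor was the 1 family member among them, a count from which nothing is read because these libraries chose the family.

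Il1r2, the decoy receptor, was the family member that separated the populations. It had 1081, 1827, 2884 and 3731 normalized counts in CCR8- replicates 1 to 4 and 7834, 4889, 36849 and 12533 in CCR8+ replicates 1 to 4. The lowest CCR8+ library lay above the highest CCR8- library, and CCR8+ replicate 3 was highest by far. The group means were 2381 ± 1165 and 15526 ± 14560 normalized counts (SD, n = 4 each). The fitted log2 fold change on the log2(normalized count + 1) scale was 2.42 (SE 0.57), a 5.37-fold higher level in CCR8+ cells. Without CCR8+ replicate 3 the log2 fold change was 1.87. Of all genes tested, 2.37% had every CCR8+ library above every CCR8- library and 2.03% had every CCR8+ library below. Among the 7 members, 1 was of the first kind and 0 were of the second.

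Il1r2 is encoded at the start of a receptor cluster on chromosome 1 that holds 6 of the 7 members. In GRCm38 with GENCODE M21, a later build than the NCBIM37 build of the files, the order along the plus strand was Il1r2 (40074079 to 40125231), Il1r1 (40225080 to 40317257), Il1rl2 (40324610 to 40367562), Il1rl1 (40429570 to 40465415), Il18r1 (40465552 to 40500854) and Il18rap (40515362 to 40551705). The cluster spans 478 kb, and 136 bases separate the end of Il1rl1 from the start of Il18r1. Il1rap lies apart on chromosome 16 (26581704 to 26730117). None of the 6 clustered members shares exonic bases with another annotated gene, whereas 552 exonic bases of Il1rap overlap the antisense gene Gm20319. The strand setting of the counting is not given in the sources used here. The log2 fold changes of the 6 clustered members differed in sign, and a part of position in them was not tested. Il1r1, the next gene after Il1r2, was among the lowest members, as was Il1rl2 beside it. Il1rl1 and Il18r1, which almost touch, had log2 fold changes of 0.99 and -0.69, which were 0.40 and 0.01 without CCR8+ replicate 3, and Il18rap followed Il18r1 with -0.40.

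Promoter windows are printed for Il1r2 and Il1rl1, the members with the highest levels per kb in CCR8+ cells. RefSeq (GRCm38.p6) gave 11 start sites for the 7 members. The windows hold the 250 bases before a start site on the plus strand. The Il1r2 window is chr1:40085843-40086092, inside the span that GENCODE gives the gene, and the Il1rl1 windows are chr1:40429320-40429569 for the upstream start site and chr1:40439379-40439628 for the downstream one. Capitals mark AGATAA, with T also allowed as its first letter and G as its last, which are letters that GATA factors bind, or the reverse complement, and CACGTG, an E-box.
Il1r2: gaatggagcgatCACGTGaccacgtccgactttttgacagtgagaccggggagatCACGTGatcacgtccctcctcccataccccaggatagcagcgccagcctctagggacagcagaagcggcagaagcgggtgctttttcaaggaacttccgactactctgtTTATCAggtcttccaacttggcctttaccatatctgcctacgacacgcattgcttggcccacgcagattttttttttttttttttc
Il1rl1 upstream start: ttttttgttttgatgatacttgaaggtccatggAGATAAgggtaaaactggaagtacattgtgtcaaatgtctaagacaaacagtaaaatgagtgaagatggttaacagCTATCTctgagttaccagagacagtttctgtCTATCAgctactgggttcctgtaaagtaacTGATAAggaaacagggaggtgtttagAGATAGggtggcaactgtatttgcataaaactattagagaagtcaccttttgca
Il1rl1 downstream start: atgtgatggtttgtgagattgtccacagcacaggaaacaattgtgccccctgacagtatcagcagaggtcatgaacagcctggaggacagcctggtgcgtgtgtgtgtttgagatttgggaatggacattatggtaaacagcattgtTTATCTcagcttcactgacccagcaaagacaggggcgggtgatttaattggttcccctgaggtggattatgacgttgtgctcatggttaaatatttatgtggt

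The upstream Il1rl1 window held 5 GATA matches on either strand, the downstream one held 1, and the Il1r2 window held 1. At least 1 GATA match was present in 26.6% of all 32817 RefSeq windows of this length, and at least 5 were present in 14 of them (0.0427%). The Il1r2 window held 2 copies of CACGTG, a palindrome counted once per site, against at least 1 in 6.02% and at least 2 in 0.43% of all windows. This motif, and the counting of windows with several matches, were chosen after the sequences had been read. Of the other members Il18rap had 1 GATA match and Il1r1 had 1 match to the NF-kB consensus at its downstream start site, which 9.55% of all windows hold. TGANTCA, the AP-1 letters, was in none of the 11 member windows and in 6.75% of all windows. A match describes letters in a window and not a bound site.

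**Figure D1:**
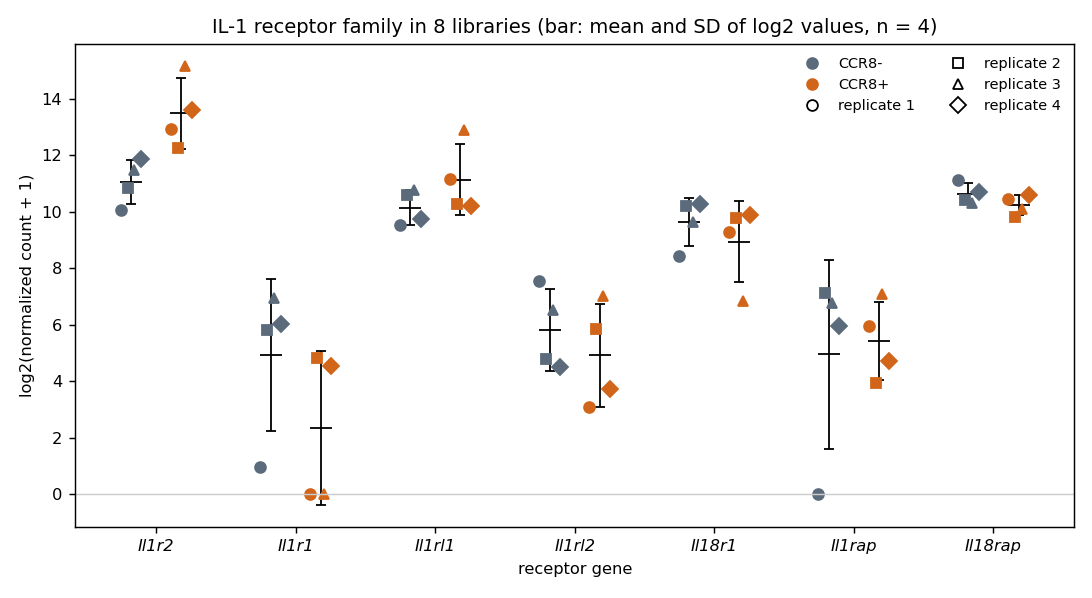
Level of each receptor gene as log2(normalized count + 1) in the 4 CCR8- (grey) and 4 CCR8+ (orange) libraries, with symbols for the replicate number and bars for the mean and SD of the log2 values. Il1r2 is the member whose orange points, from 4889 to 36849 normalized counts, all lie above the grey points, whereas Il1r1 is at 0 in CCR8+ replicates 1 and 3.

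Il1r1, the signaling receptor for the same ligand, was low throughout. It had 0.985, 55.1, 125 and 64.7 normalized counts in CCR8- replicates 1 to 4, the first of which was 1 read, and 0, 27.7, 0 and 22.6 in CCR8+ replicates 1 to 4. The CCR8+ libraries were at or below 27.7 normalized counts and 3 of the 4 CCR8- libraries were above that level, but CCR8- replicate 1 overlapped them. By counting error only, a count of 0 allowed up to 3.24 normalized counts in CCR8+ replicate 1 and up to 3.42 in CCR8+ replicate 3. These 2 libraries and CCR8- replicate 1 also had other genes at 0 with at least 100 normalized counts in each other library. Whether such loss set the lowest Il1r1 values was not tested. The log2 fold change was -2.60 (SE 1.94), and it was -3.92 without CCR8- replicate 1 and -1.82 without CCR8+ replicate 1. The values of the decoy and of the signaling receptor for IL-1 thus lay on opposite sides of 0, with an error for Il1r1 that covers most of its difference.

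Il1rl1, which encodes the IL-33 receptor ST2, had 734, 1539, 1745 and 861 normalized counts in CCR8- replicates 1 to 4. The CCR8+ libraries had 2291, 1256, 7742 and 1181. CCR8+ replicates 1 and 3 lay above all CCR8- libraries, while replicates 2 and 4 lay within their range, so the groups overlapped. The log2 fold change was 0.99 (SE 0.55), and without CCR8+ replicate 3 it was 0.40. Counts per gene do not tell the membrane form of ST2 from the soluble form, a splice variant that acts as a decoy for IL-33.

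Il1rl2, the chain that binds IL-36, showed no common direction. It had 185, 26.5, 90.3 and 21.6 normalized counts in CCR8- replicates 1 to 4 and 7.57, 57.1, 129 and 12.2 in CCR8+ replicates 1 to 4. Low and high libraries occurred in both populations. The log2 fold change of -0.91 (SE 1.39) ranged from -1.61 without CCR8+ replicate 3 to -0.30 without CCR8+ replicate 1.

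The chains of the IL-18 receptor had slightly lower means in CCR8+ cells. Il18r1, the ligand-binding chain, had 345, 1183, 802 and 1235 normalized counts in CCR8- replicates 1 to 4 and 623, 891, 114 and 938 in CCR8+ replicates 1 to 4. The groups overlapped, and CCR8+ replicate 3, the library with the most Il1r2, had the least Il18r1. The log2 fold change was -0.69 (SE 0.66), and it was 0.01 without CCR8+ replicate 3 and -1.09 without CCR8- replicate 1. Il18rap, its accessory chain, was the steadiest member, with 2263, 1363, 1290.3 and 1666 normalized counts in CCR8- replicates 1 to 4 and 1412, 905, 1107 and 1543 in CCR8+ replicates 1 to 4. Its log2 fold change was -0.40 (SE 0.27) and was -0.24 without CCR8- replicate 1.

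Il1rap, the accessory chain shared by the IL-1, IL-33 and IL-36 receptors, was low and scattered. It had 0, 140, 108 and 61.3 normalized counts in CCR8- replicates 1 to 4 and 61.6, 14.3, 135 and 25.2 in CCR8+ replicates 1 to 4. Its direction depended on 1 library. The log2 fold change was 0.46 (SE 1.74) with CCR8- replicate 1, where it was at 0, and -1.20 without it, and the mean of the normalized counts was lower in CCR8+ cells, at 58.9 against 77.2. Over the 7 members 3 log2 fold changes were above 0 and 4 below, with a median of -0.40 beside 0.04 over all genes tested.

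The same comparison was made within same-numbered libraries, called pairs here. The numbers were not taken to pair the libraries by mouse, so these values are a description. Il1r2 was higher in the CCR8+ library in 4 of 4 pairs, by 7.25-fold, 2.68-fold, 12.8-fold and 3.36-fold in pairs 1 to 4. Il1rl1 was higher in 3 of 4 pairs, by 3.12-fold, 4.44-fold and 1.37-fold in pairs 1, 3 and 4, and stood at 0.816 of the CCR8- level in pair 2. Il1r1 was lower in the CCR8+ library in 4 of 4 pairs, at 0.503 and 0.35 of the CCR8- level in pairs 2 and 4 and at least 36.4-fold lower in pair 3 when 0 was set at 3 reads. In pair 1 both libraries were under 3 reads, which gives no fold. The bound in pair 3 covers counting error only. Il18rap was also lower in 4 of 4 pairs, but at 0.624 to 0.926 of the CCR8- level. Il18r1 was lower in 3 of 4 pairs, and Il1rl2 and Il1rap were each lower in 2 of 4. Il1rap was at least 20.8-fold higher in pair 1 on the same floor and stood at 0.102 of the CCR8- level in pair 2. Il1r2 was thus the member with a higher CCR8+ value in every pair, and Il1r1 and Il18rap were those with a lower one. For Il1r1, pair 1 was only 1 read against 0 reads. The share of all genes with the same direction in 4 of 4 pairs was not counted, so nothing is read from these tallies.

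**Figure D2:**
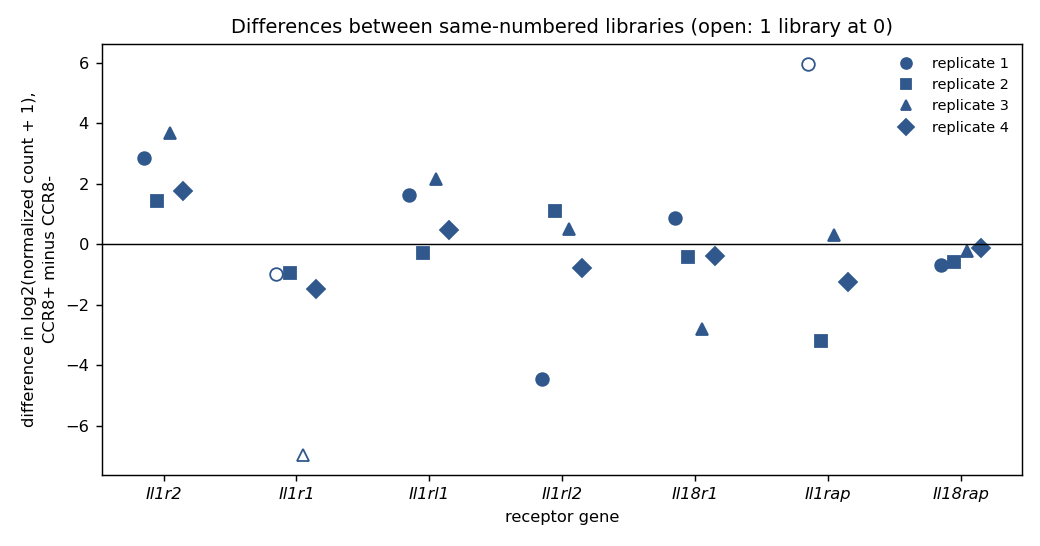
Difference in log2(normalized count + 1) between the CCR8+ and the CCR8- library of the same number, for each receptor gene. Symbols stand for the replicate number, and open symbols are differences in which 1 library is at 0. All 4 points of Il1r2 lie above 0, between 1.42 and 3.67, and all 4 of Il1r1 and Il18rap lie below 0. The replicate 1 point of Il1r1 is 1 read against 0 reads.

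The decoy was then set against the signaling receptors inside each library, where the library factor cancels. Values are ratios of normalized counts per kb of annotated exon. Il1r2 to Il1rl1 was 5.32, 4.29, 5.97 and 15.7 in CCR8- replicates 1 to 4 and 12.4, 14.1, 17.2 and 38.3 in CCR8+ replicates 1 to 4. The groups overlapped through CCR8- replicate 4, but within pairs the ratio was 2.32 to 3.28 times as high in the CCR8+ library, a narrower range than that of either gene alone. The exact Clopper-Pearson 95% intervals, which cover counting error only, were narrow, from 4.04 to 4.55 in CCR8- replicate 2 and from 36.3 to 40.6 in CCR8+ replicate 4. On the log2(normalized count + 1) scale the mean log2 ratio was 0.91 ± 0.83 in CCR8- cells and 2.35 ± 0.73 in CCR8+ cells (SD, n = 4 each), a difference of 1.44.

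Against the IL-18 receptor chains the ratios did not overlap. Il1r2 alone did not overlap either, so this is not read as a separate result about those chains. Il1r2 to Il18r1 was between 3.90 and 9.08 in CCR8- libraries and between 13.9 and 816 in CCR8+ libraries, with CCR8+ replicate 3 at the top. Il1r2 to Il18rap was between 1.69 and 7.92 in CCR8- libraries and between 19.1 and 118 in CCR8+ libraries. Il1r2 to Il1r1 was highest of all. It was 110, 77.2 and 192 in CCR8- replicates 2 to 4 and 588 and 1847 in CCR8+ replicates 2 and 4. With Il1r1 at 0, it was at least 8057 and at least 35918 in CCR8+ replicates 1 and 3 (3 reads per library as the floor). These bounds cover counting error only. In CCR8- replicate 1 a single Il1r1 read gave a ratio of 3658 with an exact interval of 655 to 144629, so the groups overlapped. The mean log2 ratio of Il1r2 to Il1r1 was 6.12 ± 2.05 in CCR8- cells and 11.1 ± 3.55 in CCR8+ cells (SD, n = 4 each), a difference of 5.03 that depends on the pseudocount of 1. It was 6.02 without CCR8- replicate 1 and 3.68 without CCR8+ replicate 3.

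**Figure D3:**
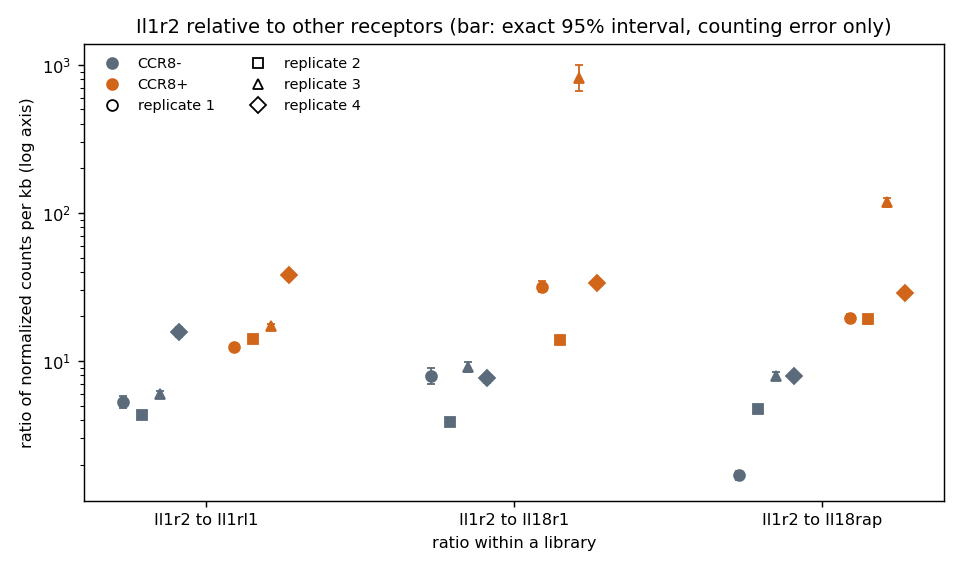
Ratio of Il1r2 to 3 other receptors, in normalized counts per kb on a log axis, in each CCR8- (grey) and CCR8+ (orange) library, with bars for exact 95% intervals that cover counting error only. Orange points lie above all grey points for Il18r1 and Il18rap, and for Il1rl1 the CCR8- library of replicate 4, at 15.7, lies among the orange points. Il1r1 is left out because it is at 0 in 2 libraries.

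Per kb of annotated exon, Il1r2 was the highest member in every library. Its share of the summed level of the 7 members was 51.2% to 75.1% in CCR8- libraries (mean 63.5% ± 10.9, SD, n = 4) and 83.3% to 93.5% in CCR8+ libraries (88.6% ± 4.80, SD, n = 4). In CCR8- cells the next members were Il18rap at 244 ± 65.5, Il18r1 at 185 ± 85.5 and Il1rl1 at 177 ± 72.2 normalized counts per kb (SD, n = 4), whose libraries overlapped. In CCR8+ cells Il1rl1 came next at 452 ± 453, followed by Il18rap at 184 ± 42.9 and Il18r1 at 133 ± 78.5, and these neighbours overlapped too. Il1rl2, Il1r1 and Il1rap formed the low end in both populations, with means from 1.98 to 11.9 normalized counts per kb, and did not differ from each other beyond their spread. The lengths are unions of GENCODE exons, 1908 bases for Il1r2 and 4817 to 11360 bases for the others, so the order depends on this annotation.

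**Figure D4:**
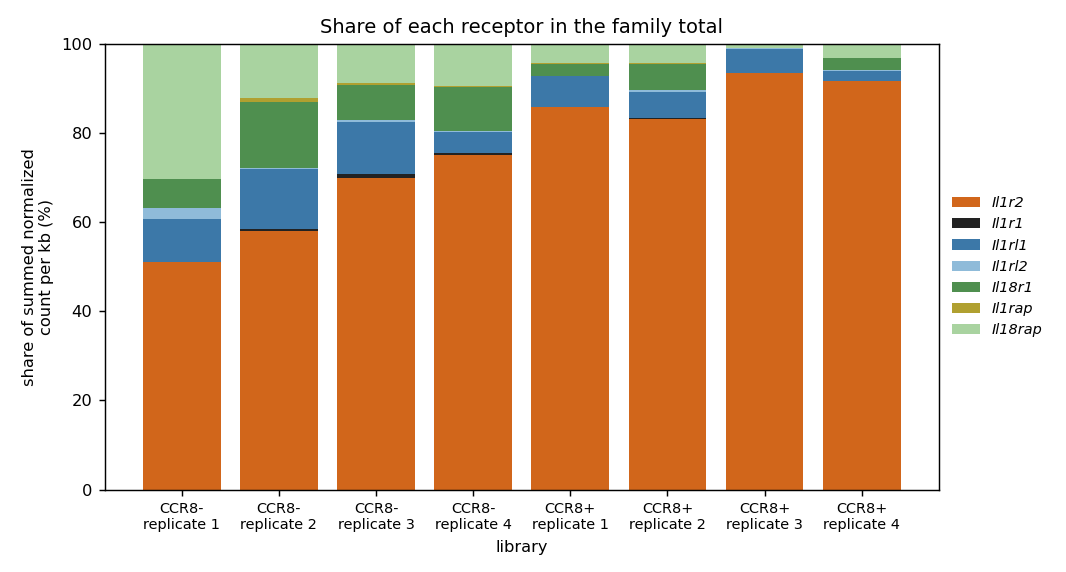
Share of each receptor in the summed normalized count per kb of the 7 members, in percent, for each library. Il1r2 takes 51.2% to 75.1% in the CCR8- libraries and 83.3% to 93.5% in the CCR8+ libraries.

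Among genes outside the family, Mt1 and Mt2, which encode the metal-binding metallothioneins, and Diablo, which encodes a mitochondrial antagonist of apoptosis inhibitors, had the pattern most like that of Il1r2. Pearson's r with Il1r2 over the 8 libraries on the log2(normalized count + 1) scale was 0.99 for Mt1, 0.98 for Diablo and 0.97 for Mt2, and each of the 3 placed the 8 libraries in the same order as Il1r2 (Spearman's rho of 1). The 8 points include the difference between the populations and share their libraries' depth and quality. With the population means taken out, r was 0.99, 0.96 and 0.96, and without CCR8- replicate 1 and CCR8+ replicate 3 it was 0.98, 0.95 and 0.96. Mt1 went from 1224 normalized counts in CCR8- replicate 1 to 80704 in CCR8+ replicate 3, whereas Diablo covered only 984 to 1561. Ccr8 itself had an r of 0.95 with Il1r2 and of 0.92 without those libraries.

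Il1rl1 was most like Glb1, a lysosomal beta-galactosidase gene, with r = 0.97, Hacd3, a gene of very long fatty acid synthesis, with r = 0.96, and Fam107b with r = 0.95. Without CCR8- replicate 1 and CCR8+ replicate 3 these were 0.94, 0.86 and 0.82. Il1rl1 and Il1r2 had an r of 0.77 (rho 0.52) over the 8 libraries, but -0.0025 without the same 2 libraries, so their likeness rests on those. Gata3, the Th2 regulator, had an r of 0.82 with Il1rl1 and 0.29 with Il1r2, and without the same 2 libraries these were 0.73 and -0.61. With Il1rl1, r was 0.91 for the mast cell and basophil marker Hdc, 0.88 for Areg, 0.80 for Il5 and 0.67 for Il13. Without the same 2 libraries these were 0.66, 0.37, 0.51 and 0.48. These values describe 8 libraries, and the 3 genes most like each receptor were picked as the highest outside the family among all genes tested.

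No other gene of the IL-1 family pathway was called. Of 41 listed genes 33 were in the table and all 33 were tested. The limma test called 0 of them and gave 2 an unadjusted p under 0.05, and edgeR and DESeq2 also called 0, although DESeq2 gave an adjusted p to only 9 of the 33. Their median log2 fold change was 0.05 beside 0.04 over all genes tested, with 19 above 0 and 14 below. In 1 gene all CCR8+ libraries lay above the CCR8- libraries and in 1 they lay below, shares near those of all genes.

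The gene above was Irak3, which encodes IRAK-M, an inhibitor of MyD88 signaling best known in myeloid cells. It had 0, 26.5, 0 and 46.6 normalized counts in CCR8- replicates 1 to 4 and 161, 48.7, 298 and 63.5 in CCR8+ replicates 1 to 4, with a log2 fold change of 4.21 (SE 1.70, adjusted p = 0.838 by limma), or 2.30 with libraries scaled to equal totals and 3.35 without CCR8- replicate 1. It was 1.84 and 1.36 times as high in pairs 2 and 4, and at least 54.5-fold and 113-fold higher in pairs 1 and 3 with 0 set at 3 reads. Exons of Irak3 and of the measured gene Tmbim4 overlap on opposite strands. The gene below was Tollip, an adaptor that restrains IRAK activation, at 700.0 to 814 normalized counts in CCR8- cells and 494 to 698 in CCR8+ cells (log2 fold change -0.27, SE 0.27, adjusted p = 0.849 by limma). Tnfaip3, which encodes the ubiquitin-editing inhibitor A20, had the highest level of the 4 signaling inhibitors. It was at 17553 ± 5260 normalized counts in CCR8- cells and 12566 ± 1938 in CCR8+ cells (SD, n = 4 each; adjusted p = 0.838 by limma), and the CCR8+ library was lower in 4 of 4 pairs.

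In the remaining groups every gene overlapped between the populations. Sigirr, an inhibitory receptor of the family, had 1944 ± 232 and 1674 ± 247 normalized counts in CCR8- and CCR8+ cells (SD, n = 4 each; adjusted p = 0.847 by limma). Of the 4 measured ligands Il1b was highest. It had 4.93, 114, 35.1 and 1642 normalized counts in CCR8- replicates 1 to 4 and 2335, 577, 189 and 192 in CCR8+ replicates 1 to 4 (adjusted p = 0.838 by limma), and Il1a and Il33 were above 0 only in replicate 4 of both populations. The inhibitor Il1rn, the IL-1 receptor antagonist, had 0 to 968 normalized counts in CCR8- cells and 85.5 to 488 in CCR8+ cells (adjusted p = 0.849 by limma). Among 4 genes of ligand processing the inflammasome adaptor Pycard was highest, at 3648 ± 1151 and 2738 ± 724 normalized counts (SD, n = 4 each; adjusted p = 0.838 by limma). Among 14 receptor-proximal genes the ubiquitin-conjugating enzyme Ube2n was highest, at 4089 ± 1492 and 3976 ± 73.6 (SD, n = 4 each; adjusted p = 0.99 by limma). Among 4 genes of receptor shedding the protease Adam10 was highest over all 8 libraries, at 739 ± 248 and 878 ± 615 (SD, n = 4 each; adjusted p = 0.989 by limma).

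With Irak3, the protease gene Bace2 was the other pathway gene with an unadjusted p under 0.05, and it is named here after its values were seen. BACE2 is among the proteases known to cleave IL1R2. It had 0, 80.9, 436 and 401 normalized counts in CCR8- replicates 1 to 4 and 590.1, 406, 1746 and 909 in CCR8+ replicates 1 to 4. The groups overlapped through CCR8+ replicate 2 and CCR8- replicate 3. The log2 fold change was 3.68 (SE 1.62, adjusted p = 0.838 by limma), and it was 1.69 without CCR8- replicate 1, where the gene was at 0. Bace2 was higher in the CCR8+ library in 4 of 4 pairs, by 5.03-fold, 4.01-fold and 2.27-fold in pairs 2 to 4 and at least 200-fold in pair 1 with 0 set at 3 reads. That floor covers counting error only, and CCR8- replicate 1 was the library with the fewest detected genes.

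**Figure D5:**
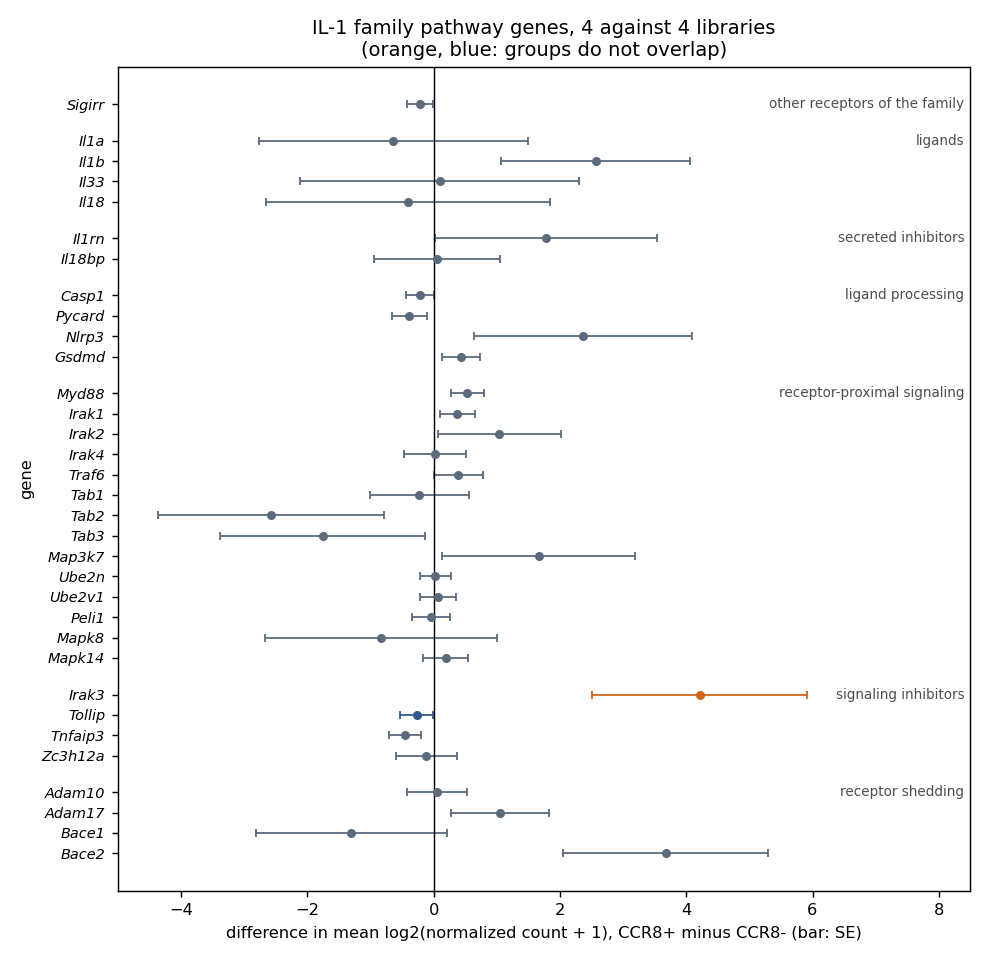
Difference in mean log2(normalized count + 1), CCR8+ minus CCR8- cells, for the 33 measured genes of the IL-1 family pathway, grouped by role, with bars for the SE of the limma fit over 4 and 4 libraries. Irak3 (orange, 4.21) and Tollip (blue, -0.27) are the 2 genes whose groups do not overlap, and none of the 33 was called.

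Cytokines and regulators that IL-33, IL-18 and IL-1 are known to act on were read beside the receptors. These genes were listed with earlier results of these data known, so their tallies and p-values are given as a description only. All 5 type 2 genes had a log2 fold change above 0, and in 3 of the 5 every CCR8+ library lay above every CCR8- library, as in 2.37% of all genes tested. Il5 had 2956 ± 1673 normalized counts in CCR8- cells and 19673 ± 15832 in CCR8+ cells (SD, n = 4 each; log2 fold change 2.61, SE 0.48, adjusted p = 0.788 by limma and 2.8e-05 by DESeq2). Il13 had 53.2 ± 18.5 and 565 ± 225 (log2 fold change 3.38, SE 0.66, adjusted p = 0.788 by limma, n = 4 each, and none given by DESeq2 without a replicate block), and Areg had 3390 ± 872 and 11019 ± 9817 (log2 fold change 1.39, SE 0.44, adjusted p = 0.838 by limma and 0.0309 by DESeq2, n = 4 each). Without CCR8+ replicate 3 the log2 fold change of Areg was 0.88. Il4 and Gata3 overlapped, with log2 fold changes of 0.85 (SE 0.51) and 0.08 (SE 0.33). Leaving out CCR8+ replicate 3 gave 0.30 for Il4 and -0.20 for Gata3. The type 1 genes Ifng, Tbx21, Stat4 and Gzmb had log2 fold changes between -0.34 and 0.16, with adjusted p between 0.852 and 0.942 by limma. The type 17 genes were sparse. Il17a reached 447 normalized counts in CCR8+ replicate 4 and at most 9.24 in the other 7 libraries, Il17f was above 0 in 2 libraries, and Il22 overlapped. Their adjusted p lay between 0.838 and 0.990 by limma.

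RNA of other cell types varied between the libraries. In bulk samples, fewer cells of a type and less RNA per cell cannot be told apart. The 8 macrophage markers summed to between 27.6 and 52321 normalized counts in CCR8- cells and between 2661 and 26781 in CCR8+ cells, and none was at 0 in all libraries. All 8 had a log2 fold change above 0, but all 8 overlapped between the populations. CCR8- replicate 1 held at most 14.8 normalized counts of any of them, and in pair 4 all 8 were lower in the CCR8+ library. Mean counts were lower in CCR8+ cells for C1qa, C1qb and Adgre1 and higher for the others. Among CCR8- libraries, Il1r2 and the macrophage sum were both lowest in replicate 1, with Il1r2 at 1081 normalized counts. Both were highest in replicate 4, with Il1r2 at 3731. Among CCR8+ libraries, Il1r2 was highest in replicate 3, where the macrophage sum was lowest. The part of macrophages in the Il1r2 values was not tested. Il1b was highest in CCR8+ replicate 1 and CCR8- replicate 4, the libraries with the highest macrophage sums, and the part of these cells in its values was not tested. The 3 measured of 6 neutrophil markers summed to at most 380.4 normalized counts in any library. The 2 measured of 6 mast cell and basophil markers summed to between 1019 and 7028 in CCR8- cells and between 4109 and 34181 in CCR8+ cells. Nearly all of it was Hdc, which encodes the enzyme that makes histamine, and Cpa3 was at most 68.4. The part of mast cells and basophils in the Il1rl1 values was not tested.

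Of the remaining marker lists, the 5 melanoma markers summed to between 105 and 17214 normalized counts in CCR8- cells and between 232 and 21698 in CCR8+ cells, and the sum was highest in replicate 4 of both, where Il1a and Il33 were detected. The B cell gene Ms4a1 was at 0 in all libraries, and the 2 B cell markers summed to at most 259. The 3 NK cell markers summed to at most 412, the 2 CD8 T cell markers to between 478 and 3805, and the 3 measured of 4 stromal markers to between 207 and 1013. The 8 Treg markers, which activated Tconv cells also express in part, summed to between 24747 and 45908 in CCR8- cells and between 43142 and 96178 in CCR8+ cells, highest in CCR8+ replicate 3. Of these markers 5 had a log2 fold change above 0 and 3 below, with 1 gene without overlap in each direction. Tnfrsf18 and Ctla4 had the highest means. Ctla4 was the gene above, at 7662 to 11692 normalized counts in CCR8- cells and 15421 to 43338 in CCR8+ cells. Itgae was the gene below, at 251 to 1178 in CCR8- cells and 0 to 175 in CCR8+ cells. Itgae and Ikzf2 were at 0 in CCR8+ replicate 3. The part of Treg cells that escaped the EGFP gate in the Il1r2 values was not tested.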

How the data were processed

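RNA-Seq libraries of 4 CCR8+ and 4 CCR8- Tconv samples were grouped by their labels. According to the methods and the submitters' processing notes, the authors used Cutadapt for trimming, hisat2 for alignment to NCBIM37, uniquely mapped reads only, HTSeq and DESeq2; versions are not given in the sources used here. Per gene and library, the deposited values are a signal named FPM and normalized by the authors to library size with intergenic reads. They are whole reads divided by one factor per library, since 100% of values were whole multiples (tolerance 0.01) of the smallest value above 0. Of the 11233 genes 20 were at 0 in all libraries. Columns of samples that were left unused numbered 0.

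Differences were fitted with limma 3.58.1 (R 4.3.3) with an intensity trend on log2(normalized count + 1) for genes whose mean was 10 or more, and p-values were adjusted by Benjamini-Hochberg. A call needed a fold above 3 and an adjusted p below 0.05, the limits of the study. The study applied them to DESeq2 results and shows genes that differ between these populations at those limits. Because the values are normalized, edgeR 4.0.16 (quasi-likelihood) and DESeq2 1.42.0 on the recovered reads were alternatives, with other scalings, pseudocounts (0.1 and 10), limits on the mean, a replicate block and each library left out. The fits were also run on simulated data with the real libraries' spread, on 10737 genes in the CCR8+ against CCR8- comparison. There limma recovered 140 of 200 changed genes with 3 false calls, edgeR 130 with 1 and DESeq2 172 with 72. These counts hold for the change that was simulated. They are not read as the chance of recovering a change near the fold limit of 3, or that of any named gene. Nor are they taken to cover libraries such as CCR8- replicate 1, where many genes were at 0.

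The receptor genes and the gene lists were chosen with earlier results of these data known. The genes named were all 7 members, Ccr8, pathway genes whose populations do not overlap and the highest of each pathway group, the measured output genes, the 3 genes most like Il1r2 and Il1rl1, and marker genes by list. Bace2 was added after its values were seen. A few listed genes are not reported here and were dropped from their lists once values were known; the receptor family, the pathway list, the type 2 genes and the Treg markers lost none. A level of 3 reads was taken as the floor, and floors and intervals cover counting error only. Depth was 12067780 to 17802628 reads per library. Replicates differed from each other beyond sampling noise, and none was counted together with another. GRCm38 annotation and RefSeq promoter windows were used only to place genes and print sequence.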

Additional observations from a re-analysis of the deposited data

Results flagged for a closer look

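For the named genes, the sample farthest from the others in each population of 4 was compared with the whole range on the log2(normalized count + 1) scale, and 7 of 60 comparisons exceeded Dixon's 95% limit, where chance gives about 1 in 20. One concerned a receptor: Il1rap was at 0 in CCR8- replicate 1 against 61.3 to 140 normalized counts in the other CCR8- libraries, and the direction of its difference rests on that library.

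The other cases were outside the family. Il17a was at 0.735 normalized counts in CCR8- replicate 2, which is 1 read, and at 0 in the other CCR8- libraries. Il17f was at 65.8 in CCR8- replicate 3 and at 36.6 in CCR8+ replicate 4, and at 0 in the other libraries. Il22 was at 212 in CCR8+ replicate 4 and at 0 in the other CCR8+ libraries. Tnfaip3 was highest in replicate 3 of both populations, at 25388 normalized counts in CCR8- cells against 14346 to 15798 in the others and at 15458 in CCR8+ cells against 11379 to 11863 in the others.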

How the results depend on the processing

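The 7 members were recomputed under up to 22 alternatives each, and all 151 values stayed within 1 SD of the libraries. Little is read from this, since leaving out 1 library could not pass that limit. The replicate block, the fits without the intensity trend or with robust variances, and the other limits on the mean return the main value by construction. Il1r2, Il1rl1, Il1r1, Il1rl2 and Il18rap kept their direction in all of their settings, and Il18r1 in 21 of 22, while Il1rap kept it in 12 of 21. Leaving out 1 library moved the log2 fold change of Il1r2 between 1.87 and 2.84, and that of Il1rap between -1.20 and 1.18. Il1r1 moved from -2.60 to -4.06 with a pseudocount of 0.1 and to -1.38 with totals of 1000000. The number of genes called, 0 by limma, was 1 with the replicate block, 2 without the intensity trend, 13 with DESeq2 and 79 with DESeq2 and the replicate block. DESeq2 called 1 member, Il1r2, with and without the block. No pathway gene was called in any setting.

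Same-numbered libraries deviated together with correlations of 0.068 to 0.217. Because 1 of the 4 was under the limit of 0.1 required of every pair, the numbers were not taken to pair the libraries and the paired fits stand here only, although 7 of 8 libraries correlated best with their own number, a hint from the data that they may. The replicate block called Il5 with an adjusted p of 0.0447 by limma. DESeq2 with the replicate block called Il5 (adjusted p = 4.2e-38), Ccr8 (2.1e-28) and Il13 (3.2e-09) as higher and Il22 (0.0151) as lower in CCR8+ cells, but no longer Areg (0.0618). The mean log2 ratio differences of Il1r2 to Il1r1 (5.03) and to Il1rl1 (1.44) are the same with the replicate block by construction, since every number has 1 library in each population.

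For the 23 other named genes 459 of 492 values kept direction and call, 7 were called under an alternative and 26, from 8 genes, had the opposite sign; their main adjusted p values were all above 0.8, and the cause was not tested. With totals of 1000000, Adam10 was at -0.010 and Ube2n at -0.043. With quantile normalization, Gata3 was at -0.014 and Ube2n at -0.094. With edgeR, Ifng was at 0.14, Il1rn at -0.17 and Ube2n at -0.039. With DESeq2, Gzmb was at 0.0015, Ifng at 0.13 and Ube2n at -0.045, and with DESeq2 and the block Il17f was at 0.15. Leaving out 1 library gave ranges of -0.36 to 0.45 for Adam10, -0.20 to 0.28 for Gata3, -0.76 to 0.34 for Gzmb, -0.90 to 0.58 for Ifng, -1.52 to 1.31 for Il17f, -0.26 to 3.04 for Il1rn, -0.059 to 0.40 for Tbx21 and -0.15 to 0.25 for Ube2n. Low counts limit Il1r1, Il1rl2 and Il1rap, whose lowest libraries held 0 to 7 reads.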
